A study of Mus musculus with 11 samples.

Results

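The genes described here are 42 mouse genes of the antioxidant defence, chosen by name with earlier results of these data known. They are the transcription factor NRF2 (gene *Nfe2l2*), its inhibitor KEAP1 and genes that NRF2 is known to switch on. With them come genes of the glutathione, thioredoxin, glutaredoxin, peroxiredoxin and superoxide dismutase systems. All 42 were found among the 34728 gene symbols of the deposited table, 39 were above 0 in every library, and 40 were among the 11251 genes tested. *Gpx8* and *Mgst2* were too low for the test, which needed 1 FPKM in 3 libraries. *Sod3* reached 1 FPKM in 2 diabetic, 3 euglycemic and 0 WT libraries and *Gpx7* in 1, 4 and 1, so both were tested only through the groups where they were high, and their p-values and the counts that hold them are no support for a difference.

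RNA was sequenced from GFP+ β-cells that had been sorted out of dispersed islets of 8-week-old mice on a C57BL/6 x 129SV background. WT mice gave 3 libraries, diabetic βRapKOGFP mice 4 and euglycemic βRapKOGFP mice 4. All 3 groups carried RIP-Cre, a Cre recombinase driven by the insulin promoter of the rat, and a Cre-activated GFP at *Rosa26*. WT littermates had intact *Raptor*, and both mutant groups lacked it (labelled BetaRapKOGFP-/-), which removes an essential part of the growth-regulating kinase complex mTORC1. Diabetic mice received no insulin pellet, whereas euglycemic mice carried one for 4 weeks. GFP marks every cell in which RIP-Cre has ever been active, so a sorted cell need not still be a β-cell. The labels do not say whether a library is 1 animal or a pool, and p-values measure only the spread between these libraries.

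Values are FPKM, fragments per kilobase of transcript scaled to the fragments mapped in the library. Differences are on the log2(FPKM + 1) scale, which understates changes of low genes. They were tested with limma, with Benjamini-Hochberg adjustment over all 11251 genes, and a gene was called where its adjusted p did not exceed 0.05 and its change reached 1.5-fold. Depth inferred from the values was 9497826 to 16644052 fragments per library. *Rptor*, the deleted gene, was at 0.948 to 1.79 FPKM in WT and at 0.423 to 0.937 in the 8 mutant libraries, and did not overlap (exact permutation p = 0.00606, two-sided, the smallest that 8 against 3 allow). By group the exact p was 0.0571 for diabetic and 0.0286 for euglycemic against WT, where 0.0286 is the smallest possible, and diabetic replicate 1 (0.937 FPKM) was next to WT replicate 1 (0.948). Summed β-cell markers were at 157613 to 191511 FPKM in WT, 138230 to 206534 in diabetic and 117287 to 202220 in euglycemic libraries. Markers of other islet cells were higher in both mutant groups without overlap: the summed 7 α-cell markers reached 1048 to 2438 FPKM in WT, 3937 to 14721 in diabetic and 4763 to 23769 in euglycemic libraries. The 11 acinar markers reached 4.28 to 54.6, 16.4 to 2885 and 15.6 to 5458 FPKM, with *Amy2a5* at 0 in WT and euglycemic libraries. The 6 duct markers summed to 58.1 to 71.8 FPKM in WT, 57.8 to 88.4 in diabetic and 97.1 to 133 in euglycemic libraries, so that euglycemic libraries were above all others. Their part in the results below was not tested. In bulk RNA, fewer cells of a type and less RNA per cell cannot be told apart.

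NRF2 is a transcription factor that KEAP1 holds for degradation in unstressed cells. Oxidants and electrophiles modify KEAP1, NRF2 accumulates, and with small MAF proteins it binds antioxidant response elements near genes for glutathione synthesis, quinone reduction, thioredoxin reduction, iron storage and glutathione conjugation. β-cells are known for low catalase and glutathione peroxidase activity compared with liver, so that peroxiredoxins and thioredoxin carry much of their peroxide removal.

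The sequences before the genes that passed the test, and the members that carry an antioxidant response element core near their start, are given first. The core was searched as TGACNNNGC on both strands, with no other motif searched, in RefSeq windows of GRCm38.p6 from 250 bases before to 50 after each transcription start. Of the 42 members, 37 had a window, and *Sod3*, *Prdx6*, *Gclc*, *Hmox1* and *Gsr* did not. The core was in the window of 7 of the 37 (18.9%), beside 3781 of 27025 genes in all (14.0%), and in 7 of 49 member windows (14.3%) beside 12.4% of all windows. The 7 are shown with the core in capitals, read on the strand that carries it, with 10 bases on each side.
Gclm, chr3:122245413-122245441, gene on the + strand, core on the opposite strand: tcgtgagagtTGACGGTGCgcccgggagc
Gstm5, chr3:107895802-107895830, gene on the + strand, core on the same strand: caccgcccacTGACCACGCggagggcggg
Nfe2l2, chr2:75704885-75704913, gene on the - strand, core on the same strand: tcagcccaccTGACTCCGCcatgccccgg
Prdx1, chr4:116685456-116685484, gene on the + strand, core on the opposite strand: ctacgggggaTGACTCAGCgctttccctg
Sod1, chr16:90220696-90220724, gene on the + strand, core on the opposite strand: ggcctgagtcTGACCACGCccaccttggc
Srxn1, chr2:152105542-152105570, gene on the + strand, core on the opposite strand: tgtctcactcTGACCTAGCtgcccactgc
Txnrd1, chr10:82859104-82859132, gene on the + strand, core on the opposite strand: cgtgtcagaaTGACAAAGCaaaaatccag
A match is a description of letters and not a binding site. *Nqo1* and *Gstm2*, the 2 members that passed the test, had no match in these windows, which says only that the letters are not there. Their upstream stretches are shown to the last base before the gene, 249 bases for *Nqo1* and 217 for *Gstm2*.
Nqo1, chr8:107403207-107403455, - strand: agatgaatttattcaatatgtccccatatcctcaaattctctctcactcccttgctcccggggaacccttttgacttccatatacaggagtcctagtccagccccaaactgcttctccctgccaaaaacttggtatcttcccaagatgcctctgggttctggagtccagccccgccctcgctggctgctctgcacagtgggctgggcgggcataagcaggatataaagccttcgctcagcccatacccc
Gstm2, chr3:107986454-107986670, - strand: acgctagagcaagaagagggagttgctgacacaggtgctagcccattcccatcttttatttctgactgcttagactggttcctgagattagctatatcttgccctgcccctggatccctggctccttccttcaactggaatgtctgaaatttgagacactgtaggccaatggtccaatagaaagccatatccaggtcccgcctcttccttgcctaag

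In diabetic against WT libraries, 2 of the 40 members tested passed, *Nqo1* and *Gstm2*, both lower, and none was higher. Of all genes tested, 0.969% were called in this comparison, 0.471% as higher and 0.498% as lower. At an unadjusted p of at most 0.05 there were 6 members, 3 higher (*Srxn1*, *Gpx3*, *Sod3*) and 3 lower (*Nqo1*, *Glrx*, *Gstm2*), where 11.9% of all genes were at that p, 6.15% higher and 5.74% lower. The groups did not overlap for 7 members, 3 higher and 4 lower, beside 13.5% of all genes, 6.67% higher and 6.88% lower. The median difference of the members was 0.014 and that of all genes 0.006, and 21 of the 40 had a higher mean in diabetic libraries, beside 50.7% of all genes. The 6 members at that p are 15% of the 40, near the share of all genes, and the median of the list was close to that of all genes. *Sod3*, among the 3 higher in both counts, was tested only through mutant libraries.

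In euglycemic against WT libraries, 0 of 40 members passed in limma, where 0.551% of all genes did, 0.356% as higher and 0.196% as lower. An unadjusted p of at most 0.05 was reached by 13 members, beside 13.9% of all genes. Of these, 11 were higher in euglycemic libraries (7.33% of all genes) and 2 were lower (6.52% of all genes). For 15 members the groups did not overlap, 12 higher and 3 lower, beside 10.9% of all genes, 5.91% higher and 5.02% lower. *Sod3* is among the 11, and *Sod3* and *Gpx7* are among the 12, both tested only through the groups where they were high. The median difference was 0.22 for the members and −0.010 for all genes, and 28 of 40 had a higher mean, beside 49% of all genes. These comparisons share the 3 WT libraries, so their values are given side by side and are not independent.

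Between diabetic and euglycemic libraries 0 of 40 members passed in limma, where 0.00889% of all genes did, which amounts to a single one. The count with an unadjusted p up to 0.05 was 17 members, 2 higher and 15 lower in diabetic libraries, beside 20.6% of all genes, 10.6% higher and 10% lower. The groups did not overlap for 13 members, all lower in diabetic libraries, beside 14.3% of all genes, 6.85% higher and 7.42% lower. *Gpx7*, tested only through euglycemic libraries, is among these 13 and among the 15. The members' median was −0.43 and that of all genes 0.0088, and 8 of 40 had a higher mean in diabetic libraries, beside 50.9% of all genes. Both mutant groups together against WT gave 1 called member, *Nqo1*, beside 1.05% of all genes, 0.533% as higher and 0.516% as lower. There were 10 members at an unadjusted p of at most 0.05, 8 higher and 2 lower, beside 11.3% of all genes, 5.94% higher and 5.37% lower. In 4 members the mutant and WT libraries did not overlap (*Nqo1* and *Gstm2* lower, *Prdx5* and *Sod3* higher), beside 3.68% of all genes, 1.9% higher and 1.78% lower. A higher mean was found in 26 of 40 members and 49.4% of all genes.

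**Figure D1:**
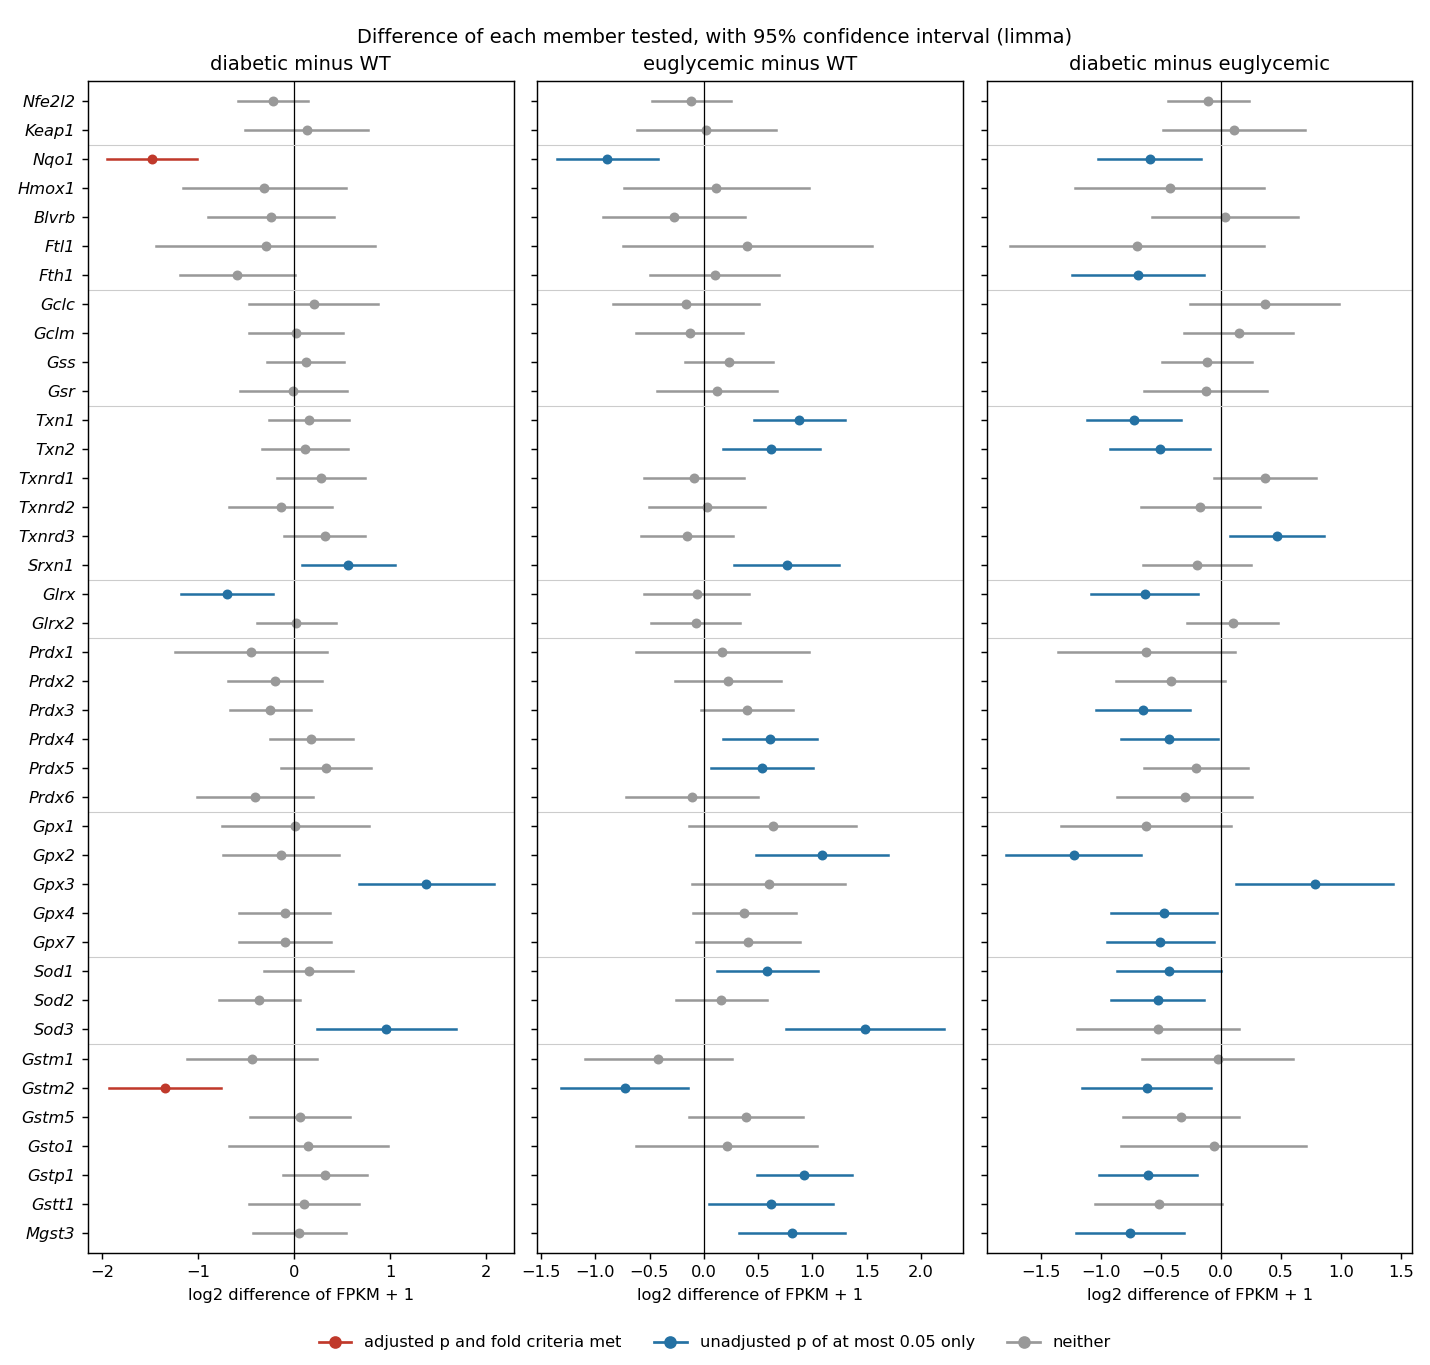
Difference of log2(FPKM + 1) of the 40 members tested (points) with its 95% confidence interval (lines) in diabetic minus WT, euglycemic minus WT and diabetic minus euglycemic libraries, from limma, with genes ordered by role. Red marks the 2 calls, *Nqo1* and *Gstm2* in the left panel, and blue an unadjusted p of at most 0.05 without a call. That p was reached by 6, 13 and 17 members from left to right, the 2 calls included.

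The members differed from the genes tested in exon length and expression level. They were shorter than the genes tested, with a median exon length of 2801 bases beside 4025.5, and 24 of the 40 were in the highest of 4 equal bins of mean expression. When the genes were put into 4 equal bins of exon length, the difference between diabetic and euglycemic libraries moved with length over all genes, from a median of −0.29 in the shortest bin to 0.24 in the longest. The 18 members in the shortest bin had a median of −0.51. In the second bin the median was −0.084 for all genes and −0.31 for the 12 members. In the next it was 0.0997 for all genes and −0.17 for 7 members, and in the longest bin, which held only 3 members, theirs was 0.097. For euglycemic minus WT the shortest bin had a median of 0.18 over all genes and 0.40 over the 18 members, and the longest −0.16 and −0.077. In the highest bin of mean expression, diabetic minus euglycemic had a median of −0.21 over all genes and −0.50 over the 24 members, and euglycemic minus WT 0.12 and 0.40. The part of length and of expression level in the members' differences was not tested. When each library was rescaled to a common sum (TPM), the median of all genes between diabetic and euglycemic libraries became 0.12 and that of the members −0.32, and 11 of 40 in place of 8 had a higher mean in diabetic libraries.

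**Figure D2:**
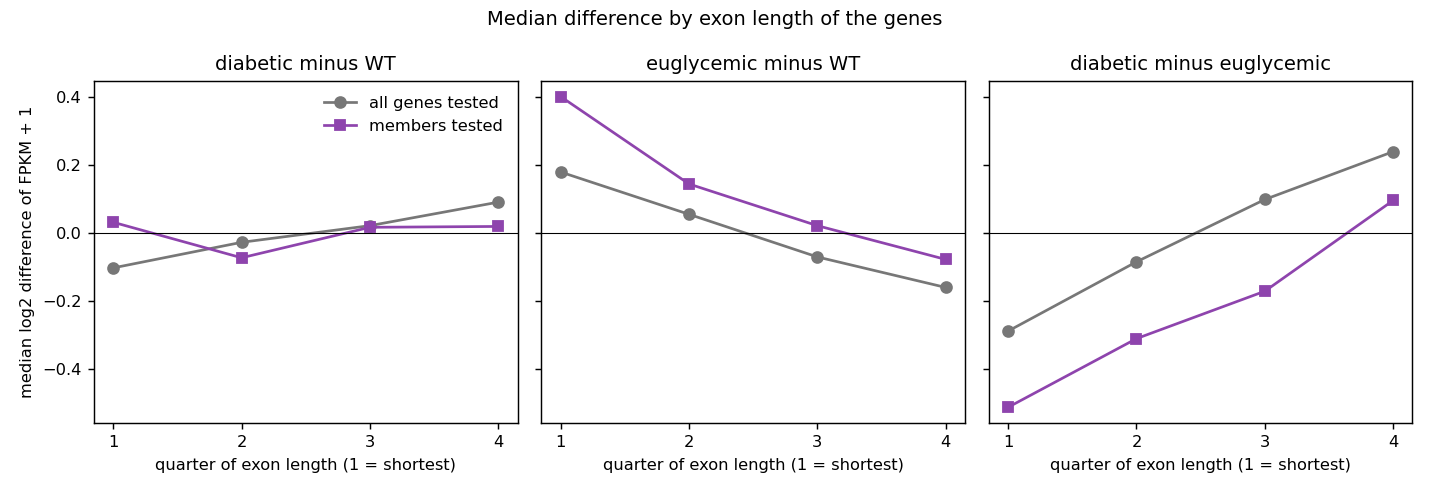
Median difference of log2(FPKM + 1) by exon length in 4 equal bins, from 1 (shortest) to 4 (longest), for all genes tested (grey circles) and for the members in each bin (purple squares; 18, 12, 7 and 3 members). In the right panel both lines climb with length, from −0.29 to 0.24 for all genes and from −0.51 to 0.097 for the members.

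Neither regulator of the pathway passed in a comparison. *Nfe2l2* (ENSMUSG00000015839), which encodes NRF2, was at 14.0, 12.3 and 13.0 FPKM in WT, at 11.8, 9.46, 10.8 and 12.5 in diabetic and at 13.8, 11.1, 11.7 and 11.6 in euglycemic libraries. The groups overlapped, and the difference from WT was −0.22 in diabetic (95% interval −0.58 to 0.14, limma adjusted p = 0.666) and −0.12 in euglycemic libraries (−0.48 to 0.25, adjusted p = 0.783). NRF2 is controlled mainly as a protein, so its mRNA does not report its activity. *Keap1* varied more, with 8.53, 10.4 and 12.9 FPKM in WT, 16.3, 15.1, 9.73 and 7.22 in diabetic and 15.5, 11.5, 10.1 and 7.02 in euglycemic libraries. Its highest and lowest values in each mutant group enclosed the WT range. Its difference from WT was 0.13 in diabetic (−0.51 to 0.77, adjusted p = 0.911) and 0.02 in euglycemic libraries (−0.62 to 0.66, adjusted p = 0.980).

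*Nqo1*, the quinone reductase that is a classical NRF2 target, had the smallest p of the members. It lies on chromosome 8 of GRCm38 from 107388225 to 107403206 on the - strand (ENSMUSG00000003849) and shares no 50-base stretch with another gene. WT libraries had 13.2, 11.7 and 9.64 FPKM, diabetic libraries 3.89, 2.5, 3.45 and 4.15, and euglycemic libraries 7.19, 4.21, 6.64 and 5.22. The groups formed 3 steps without overlap, although the highest diabetic and the lowest euglycemic library were close, at 4.15 and 4.21. *Nqo1* fell by 1.48 (SE 0.22) in diabetic against WT libraries, a 2.79-fold decrease of FPKM + 1 (limma adjusted p = 0.00633), in 4 of 4 libraries. Its mean was 3.50 FPKM in diabetic and 11.5 in WT libraries. In euglycemic libraries the difference from WT was −0.89 (SE 0.22) with an adjusted p of 0.114, which did not pass. Of the other settings it passed only with library weights (−0.87, adjusted p = 0.00532), where 20.3% of all genes were called. Between diabetic and euglycemic libraries the difference was −0.59 (SE 0.20, adjusted p = 0.154). Against WT, both mutant groups together gave a fall by 1.18 (SE 0.19, adjusted p = 0.0113), and all 8 mutant libraries lay below the lowest WT library. That last call was lost without WT replicate 2 (adjusted p = 0.0803), and the call in diabetic libraries was kept in all 21 other settings.

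The other genes of heme and iron handling had wide spreads. *Hmox1*, heme oxygenase and also an NRF2 target, was at 7.80, 3.07 and 4.88 FPKM in WT, at 2.65, 6.31, 2.74 and 4.30 in diabetic and at 2.62, 3.94, 7.59 and 10.2 in euglycemic libraries. Each group spanned more than its distance from the others, with differences from WT of −0.31 (SE 0.39, adjusted p = 0.828) and 0.12 (SE 0.39, adjusted p = 0.916). *Blvrb*, a flavin reductase that also reduces biliverdin IXβ, was at 0.456 to 3.28 FPKM over all 11 libraries and passed in no comparison.

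The ferritins, which store iron, were the members with the highest levels. *Fth1*, the heavy chain, had 1592, 826 and 855 FPKM in WT, 589.9, 661, 827 and 699 in diabetic and 1266, 1255, 1229.7 and 789 in euglycemic libraries. Diabetic libraries were at or below the lowest WT library, apart from replicate 3, which was just above it, and the difference from WT was −0.59 (SE 0.28, adjusted p = 0.422). *Ftl1*, the light chain, had 1022, 260.0 and 346 FPKM in WT, 202, 243, 611 and 603 in diabetic and 439, 899.9, 879.9 and 363 in euglycemic libraries. The groups overlapped throughout, and 58.4% of its 50-base stretches also occur in other genes, mostly in the copy *Ftl1-ps1*, which itself was listed at 597 to 1674 FPKM, so the split of reads between them is uncertain.

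The genes that make and recycle glutathione, the main small-molecule thiol of the cell, passed in no comparison. *Gclc*, the catalytic subunit of the rate-limiting enzyme, was at 12.5, 9.79 and 12.2 FPKM in WT, 16.4, 13.1, 11 and 13.2 in diabetic and 14.2, 11.7, 13.4 and 4.43 in euglycemic libraries. Only euglycemic replicate 4 lay outside the range of the others by a wide margin, and differences from WT were 0.20 (SE 0.31, adjusted p = 0.862) and −0.16 (SE 0.31, adjusted p = 0.839). *Gclm*, the modifier subunit, was at 7.85, 7.25 and 7.16 FPKM in WT, 12, 5.14, 7.07 and 7.19 in diabetic and 6.90, 5.75, 7.03 and 7.12 in euglycemic libraries. All 4 euglycemic libraries were below the lowest WT library, with the nearest pair 7.12 and 7.16, and the difference was −0.13 (SE 0.23, adjusted p = 0.823). Glutathione synthetase (*Gss*, 3.17 to 5.21 FPKM) and glutathione reductase (*Gsr*, 27.3 to 54.7 FPKM) passed in no comparison, and the median over these 4 genes was 0.068 for diabetic and −0.0062 for euglycemic against WT.

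In the thioredoxin system, which passes electrons from NADPH to oxidised proteins and peroxiredoxins, the largest differences were in euglycemic libraries. *Txn1*, the cytosolic thioredoxin, was at 46.1, 39.5 and 32.1 FPKM in WT, at 36.7, 52.5, 37.6 and 48.6 in diabetic and at 78.8, 68.2, 74.0 and 68.7 in euglycemic libraries. Every euglycemic library was above every other library, while diabetic and WT libraries overlapped. The difference was 0.88 for euglycemic against WT (95% interval 0.46 to 1.3, limma adjusted p = 0.0770) and −0.72 for diabetic against euglycemic libraries (−1.11 to −0.34, adjusted p = 0.122), and neither passed. Without WT replicate 1 both passed, with adjusted p values of 0.0241 and 0.0418. The summed duct markers, too, were above all others in euglycemic libraries, as were *Gpx2*, *Gstp1* and *Mgst3*, described further on. Their part in these differences was not tested.

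*Srxn1*, the NRF2 target that repairs overoxidised peroxiredoxins, was at 23.0, 14.0 and 17.1 FPKM in WT, at 27.9, 22.3, 27.3 and 29.4 in diabetic and at 25.7, 25.3, 41.3 and 33.0 in euglycemic libraries. Apart from diabetic replicate 2, every mutant library was above the highest WT library. Its difference from WT was 0.56 in diabetic (SE 0.22, adjusted p = 0.332) and 0.76 in euglycemic libraries (SE 0.22, adjusted p = 0.170). *Txnrd1*, the cytosolic thioredoxin reductase and another NRF2 target, was at 32.5, 36.2 and 43.2 FPKM in WT, at 51.4, 37.0, 48.5 and 44.9 in diabetic and at 43.5, 36.3, 36.7 and 25.2 in euglycemic libraries. The ranges overlapped, with differences from WT of 0.28 (SE 0.21, adjusted p = 0.667) and −0.09 (SE 0.21, adjusted p = 0.872). Mitochondrial thioredoxin *Txn2* was at 4.66 to 9.11 FPKM in WT, 6.12 to 8.32 in diabetic and 10.1 to 11.1 in euglycemic libraries, 0.62 above WT in the last (adjusted p = 0.223). *Txnrd2* and *Txnrd3* were at 1.22 to 3.50 FPKM in all libraries and did not pass.

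Of the glutaredoxins, which remove glutathione from proteins, *Glrx* was at 51.2, 43.5 and 34.6 FPKM in WT, at 21.1, 25.2, 25.5 and 32.7 in diabetic and at 54.5, 42, 36.2 and 33.0 in euglycemic libraries. Diabetic libraries were below all others, with the nearest pair 32.7 and 33.0. The difference was −0.70 from WT (SE 0.22, adjusted p = 0.210) and −0.64 from euglycemic libraries (SE 0.21, adjusted p = 0.145), and −0.06 between euglycemic and WT libraries (adjusted p = 0.917). The mitochondrial *Glrx2* was at 0.997 to 1.94 FPKM throughout.

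**Figure D3:**
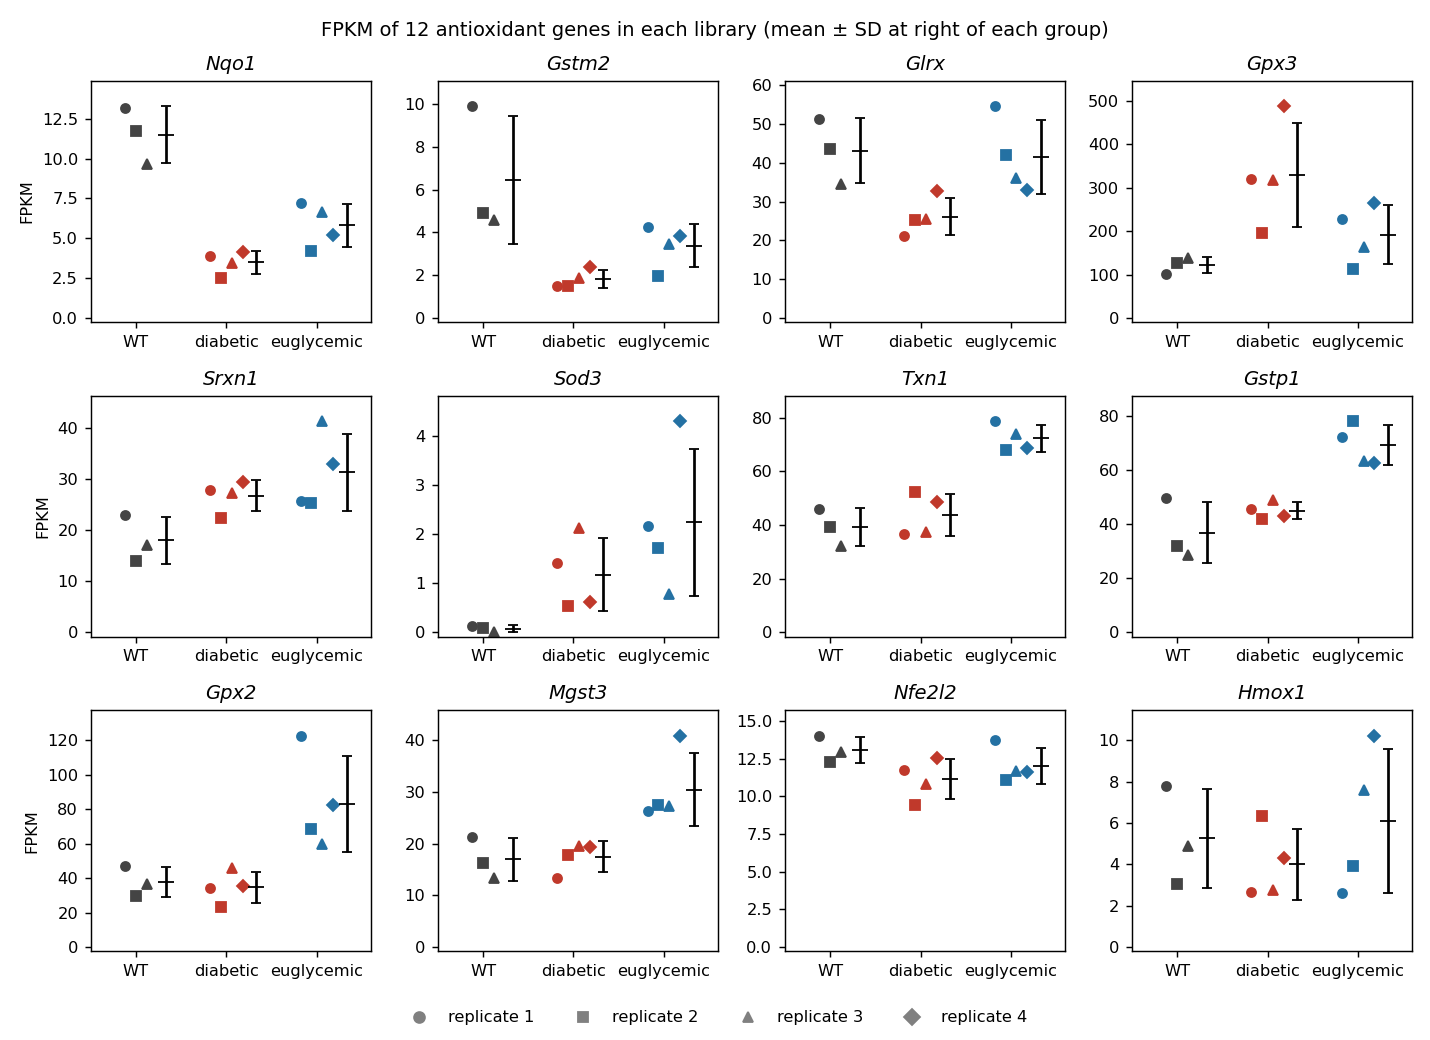
FPKM of 12 members in each library (circle, square, triangle and diamond for replicates 1 to 4; WT grey, diabetic red, euglycemic blue), with the group mean ± SD as a black bar at the right of each group. *Nqo1* and *Gstm2* are highest in WT, *Glrx* is lowest in diabetic, and *Txn1*, *Gstp1*, *Gpx2* and *Mgst3* are highest in euglycemic libraries.

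None of the 6 peroxiredoxins, thiol enzymes that reduce hydrogen peroxide, passed in a comparison, and all 6 had a lower mean log2 value in diabetic than in euglycemic libraries (median −0.42, from −0.65 to −0.21), also under TPM. *Prdx3*, the mitochondrial one, was at 49.2, 33.5 and 29.7 FPKM in WT, at 29.6, 28.2, 34.8 and 30.3 in diabetic and at 49.1, 54.1, 48.4 and 43.5 in euglycemic libraries. The mutant groups did not overlap, and WT replicate 1 was with the euglycemic libraries while the other WT libraries were with the diabetic ones. The difference between the mutant groups was −0.65 (SE 0.18, adjusted p = 0.126). The endoplasmic reticulum enzyme *Prdx4* was at 11.4 to 16.3 FPKM in WT, 12.6 to 17.7 in diabetic and 18.2 to 27.6 in euglycemic libraries. *Prdx5* was at 14.9 to 16.6 FPKM in WT and at 17.1 to 27.7 in the 8 mutant libraries, 0.43 above WT with both groups together (SE 0.19, adjusted p = 0.418), and 15.5% of its 50-base stretches also occur elsewhere, in the overlapping gene *Trmt112* on the other strand. *Prdx1*, *Prdx2* and *Prdx6* had overlapping ranges in all comparisons except *Prdx6* in diabetic against WT, at 20.1 to 28.6 and 30.3 to 32.2 FPKM.

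None of the 5 glutathione peroxidases tested passed in a comparison. Their mean log2 value was above that of WT in 2 of 5 in diabetic and in 5 of 5 in euglycemic libraries, beside 50.7% and 49% of all genes. In diabetic against euglycemic libraries 1 of 5 was higher, beside 50.9% of all genes. *Gpx7* is among the 5 and was tested only through euglycemic libraries, so its higher mean there was selected. *Gpx3*, the secreted enzyme of blood plasma, was at 100.5, 126 and 137 FPKM in WT, at 319.8, 196, 317 and 488 in diabetic and at 228, 113, 162 and 264 in euglycemic libraries. Every diabetic library was above every WT library, and euglycemic libraries lay between and overlapped both. It was 1.38 above WT in diabetic libraries (SE 0.33, a 2.6-fold difference of FPKM + 1), which did not pass (limma adjusted p = 0.0733). It passed without diabetic replicate 2 (adjusted p = 0.0488), without euglycemic replicate 4 (adjusted p = 0.0400), with library weights (log2 difference 1.3, adjusted p = 0.0126) and when only the groups compared were fitted (adjusted p = 0.0483), and missed in the other 17 of 21 settings. In euglycemic libraries it was 0.60 above WT (SE 0.33, adjusted p = 0.433).

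*Gpx2*, the form first known from the gut and an NRF2 target, was at 47.0, 29.4 and 36.7 FPKM in WT, at 34.1, 23.2, 45.6 and 35.4 in diabetic and at 123, 68.2, 59.7 and 82.1 in euglycemic libraries. Euglycemic libraries were above all others, and diabetic and WT libraries overlapped. It was 1.09 above WT in euglycemic libraries (95% interval 0.48 to 1.70, adjusted p = 0.132), and diabetic minus euglycemic was −1.23 (−1.79 to −0.66, adjusted p = 0.122). Without WT replicate 1 the adjusted p values were 0.0434 and 0.0415, so both passed. The copy *Gpx2-ps1*, which shares 6.03% of the 50-base stretches of *Gpx2*, was listed at 4.17 to 6.96 FPKM in WT, 4.25 to 7.42 in diabetic and 12.7 to 22.2 in euglycemic libraries.

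*Gpx1* (12.2 to 45.2 FPKM), the general cytosolic enzyme, and *Gpx4* (8.94 to 18.5 FPKM), which protects membranes from lipid peroxides, passed in no comparison, and 34.7% of the 50-base stretches of *Gpx4* are shared with other genes. The endoplasmic reticulum enzyme *Gpx7* was at 0.584 to 1.05 FPKM in WT, 0.199 to 1.01 in diabetic and 1.11 to 1.82 in euglycemic libraries. *Gpx8*, which was not tested with limma, was listed at 0 in all 3 WT libraries, at 0.457 and 0.302 FPKM in 2 diabetic libraries and at 0.177 FPKM in 1 euglycemic library, all within about 5 fragments. An exact permutation test, two-sided, gave p = 0.429 between the mutant groups.

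Among the superoxide dismutases, extracellular *Sod3* was at 0.136, 0.0901 and 0 FPKM in WT, about 7, 4 and 0 fragments. It was at 1.42, 0.547, 2.13 and 0.624 FPKM in diabetic and at 2.17, 1.71, 0.783 and 4.31 in euglycemic libraries. All 8 mutant libraries were above the 3 WT libraries, at low levels. The difference from WT was 0.96 in diabetic (SE 0.34, limma adjusted p = 0.257), 1.48 in euglycemic (SE 0.34, adjusted p = 0.0852) and 1.22 in both together (SE 0.30, adjusted p = 0.0848), and none passed. Since no WT library reached the filter, *Sod3* was in the test only through mutant libraries, and these p-values describe a selected gene. When all genes above 0 were tested, without a filter, the adjusted p was 0.567, 0.296 and 0.316. The size of these differences depends on the pseudocount: with 0.1 in place of 1, *Sod3* was 3.60 above WT in euglycemic libraries (adjusted p = 0.0280) and 3.18 in both groups together (adjusted p = 0.0199), which passed. The same selection holds for the other settings in which it passed. With library weights it passed in diabetic (adjusted p = 0.0215), euglycemic (adjusted p = 0.00329) and both groups against WT (adjusted p = 0.00322). It also passed in both groups together under TPM (adjusted p = 0.0475) and without euglycemic replicate 3 (adjusted p = 0.0393) or 4 (adjusted p = 0.0474), and in euglycemic libraries without euglycemic replicate 3 (adjusted p = 0.0374). Summed endothelial markers were at 1.68 to 4.11 FPKM in WT, 8.81 to 52.7 in diabetic and 1.4 to 4.61 in euglycemic libraries. Stellate or fibroblast markers summed to at most 0.496, 15.8 and 0.245 FPKM in the 3 groups. Their part in the *Sod3* differences was not tested.

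The cytosolic *Sod1* was at 57.9, 48.5 and 37.6 FPKM in WT, at 39.4, 56.2, 56.8 and 60.8 in diabetic and at 61.3, 74.2, 85.1 and 66.8 in euglycemic libraries, 0.58 above WT in the last (SE 0.22, adjusted p = 0.259). The mitochondrial *Sod2* was at 26.4 to 42.9 FPKM in WT, 21.8 to 26.9 in diabetic and 31.7 to 37.9 in euglycemic libraries. Between the mutant groups its difference was −0.52 (SE 0.18, adjusted p = 0.157). Summed transcripts of the mitochondrial genome, 13 genes, were at 9553 to 14915 FPKM in WT, 5440 to 7095 in diabetic and 7746 to 11342 in euglycemic libraries, and so moved with *Sod2*, *Prdx3* and *Txn2* between the mutant groups. Their part in these differences was not tested.

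Glutathione transferases couple glutathione to reactive compounds, and they held the second called gene. *Gstm2* lies on chromosome 3 of GRCm38 from 107981702 to 107986453 on the - strand (ENSMUSG00000040562), and 5.65% of its 50-base stretches also occur in other genes, *Gstm1* among them. It was at 9.90, 4.90 and 4.58 FPKM in WT, at 1.5, 1.5, 1.88 and 2.39 in diabetic and at 4.24, 1.97, 3.48 and 3.84 in euglycemic libraries. WT replicate 1 was well above the other WT libraries, and all 8 mutant libraries were below the lowest WT library. *Gstm2* fell by 1.35 (SE 0.27) in diabetic against WT libraries, a 2.54-fold decrease of FPKM + 1 (limma adjusted p = 0.0364). Its mean was 1.82 FPKM in diabetic and 6.46 in WT libraries. The call was lost in 8 of 20 other settings, with adjusted p values up to 0.133: without a filter, without WT replicate 1, 2 or 3, without diabetic replicate 1, 2 or 3 and without euglycemic replicate 3. In euglycemic libraries *Gstm2* was 0.73 below WT (SE 0.27, adjusted p = 0.260) and in both groups together 1.04 below (SE 0.24, adjusted p = 0.0661).

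*Gstp1*, the pi-class transferase, was at 49.7, 32.1 and 28.7 FPKM in WT, at 45.8, 42.1, 49.1 and 43.1 in diabetic and at 72.4, 78.2, 63.4 and 62.8 in euglycemic libraries. Euglycemic libraries were above all others, and WT replicate 1 was with the diabetic libraries. It was 0.92 above WT in euglycemic libraries (95% interval 0.49 to 1.36, adjusted p = 0.0744), and 0.32 in diabetic libraries (−0.12 to 0.76, adjusted p = 0.587). Between the mutant groups the difference was −0.61 (SE 0.19, adjusted p = 0.137). Without WT replicate 1 the adjusted p was 0.0117 for euglycemic against WT and 0.0425 between the mutant groups, and both passed. Of its 50-base stretches, 33.7% are shared with *Gstp2*, which was listed at 0 in WT and euglycemic libraries.

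*Mgst3*, a microsomal member, was at 21.4, 16.2 and 13.2 FPKM in WT, at 13.3, 17.8, 19.5 and 19.4 in diabetic and at 26.3, 27.4, 27.2 and 40.9 in euglycemic libraries. The euglycemic libraries were the 4 highest. It was 0.81 above WT (SE 0.23, adjusted p = 0.152), and diabetic minus euglycemic was −0.76 (SE 0.21, adjusted p = 0.125). *Gstt1* was at 27.7 to 29.9 FPKM in euglycemic, 13.2 to 26.6 in WT and 13.1 to 27.6 in diabetic libraries. *Gstm1* (9.07 to 30.0 FPKM), *Gstm5* (11 to 23.5 FPKM) and *Gsto1* (5.28 to 17.1 FPKM) overlapped between groups in all comparisons. *Mgst2* was listed at up to 0.318 FPKM, with exact permutation p values, two-sided, of 0.714 for each mutant group against WT. All 7 transferases tested had a lower mean log2 value in diabetic than in euglycemic libraries, which under TPM turned for *Gstm1* (0.089) and *Gsto1* (0.054), and 5 of 7 a higher one in euglycemic than in WT libraries.

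**Figure D4:**
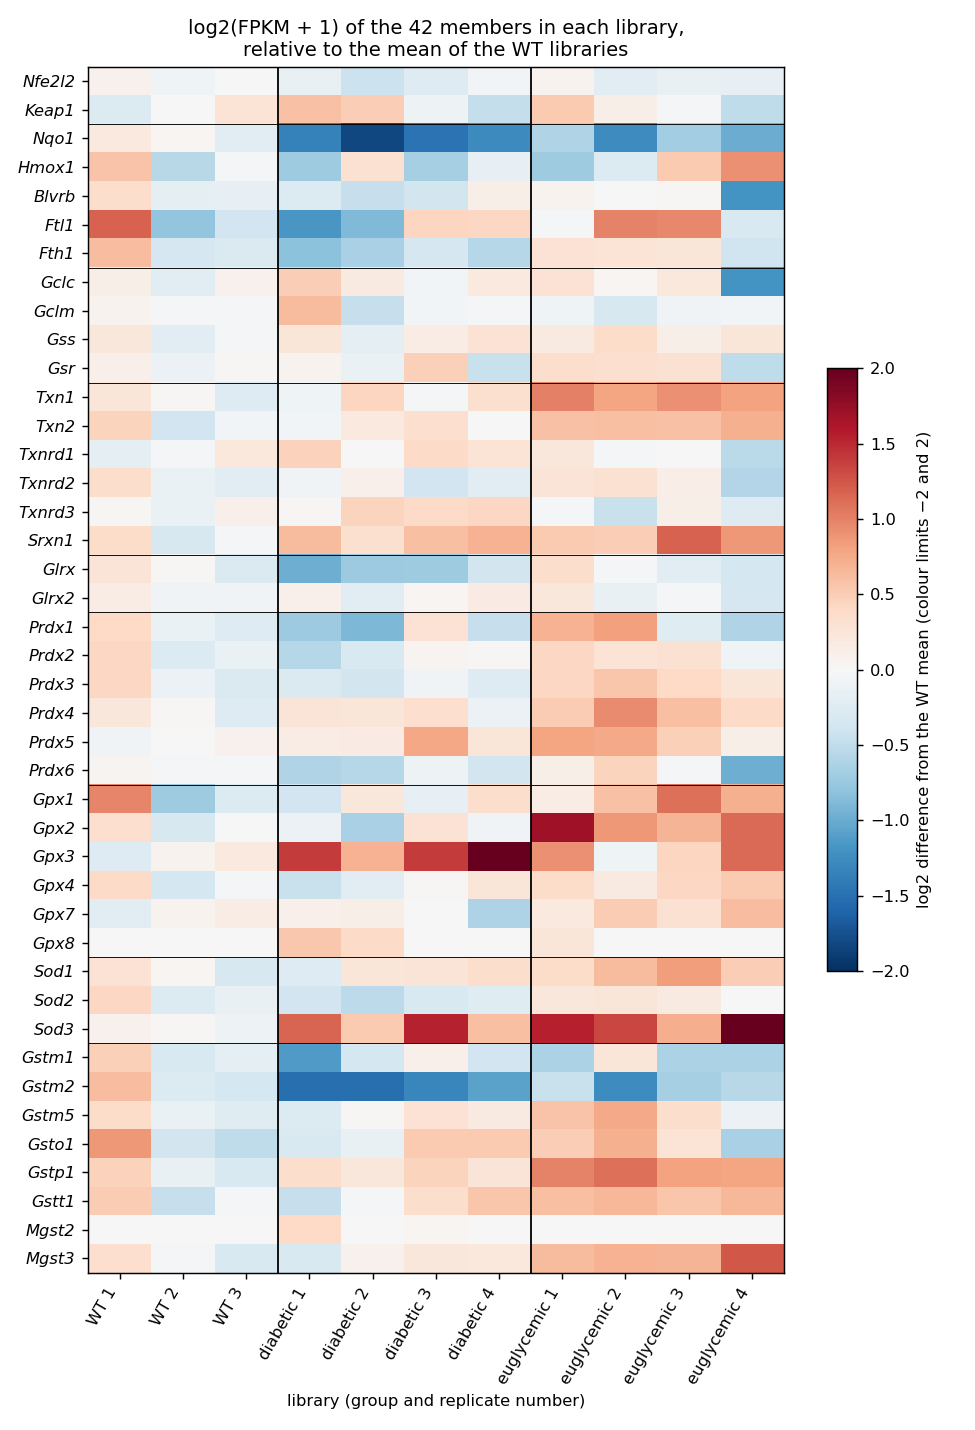
log2(FPKM + 1) of all 42 members in each of the 11 libraries minus the mean of the WT libraries, with genes in rows ordered by role and colours limited to −2 and 2. *Nqo1* and *Gstm2* are blue in all 8 mutant libraries, *Sod3* is red in all 8, and *Txn1*, *Gstp1*, *Gpx2* and *Mgst3* are red in the 4 euglycemic libraries.

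WT replicate 1 changed more calls in euglycemic libraries than any other library. It had the highest *Txn1*, *Txn2*, *Gstp1*, *Gpx1*, *Gpx2*, *Mgst3* and *Srxn1* of the 3 WT libraries. Without it 7 members passed in euglycemic against WT libraries, all of them higher: *Gpx1*, *Gpx2*, *Gstp1*, *Mgst3*, *Srxn1*, *Txn1* and *Txn2*. In the same fit 536 of the 11251 genes passed (4.76%) in place of 62, beside 17.5% of the 40 members. Without WT replicate 2 or 3 none passed, and without euglycemic replicate 3 only *Sod3* passed. Between diabetic and euglycemic libraries 4 passed without WT replicate 1, *Gpx2*, *Gstp1*, *Prdx3* and *Txn1*, all lower in diabetic libraries. That is 10% of the members, beside 378 of all genes (3.36%) in place of 1. WT libraries do not enter this comparison, so these differences stayed as they were (*Gpx2* −1.23, *Txn1* −0.72). Only the spread shared by all groups in the fit, and so the p-values, changed. The same holds in diabetic against WT for *Gpx3* without euglycemic replicate 4 (1.38) and *Gstm2* without euglycemic replicate 3 (−1.35). No label gives a reason to leave WT replicate 1 out, and the counts reported are those with all 11 libraries. The summed 11 immediate early and dissociation genes were at 1962 FPKM in WT replicate 1 and at 6815 and 5535 in the other WT libraries, beside 1034 to 4577 in diabetic and 1050 to 9823 in euglycemic libraries. Transcripts of the mitochondrial genome summed to 14915 FPKM in WT replicate 1, 10746 in replicate 2 and 9553 in replicate 3. Their part in the calls that moved was not tested.

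**Figure D5:**
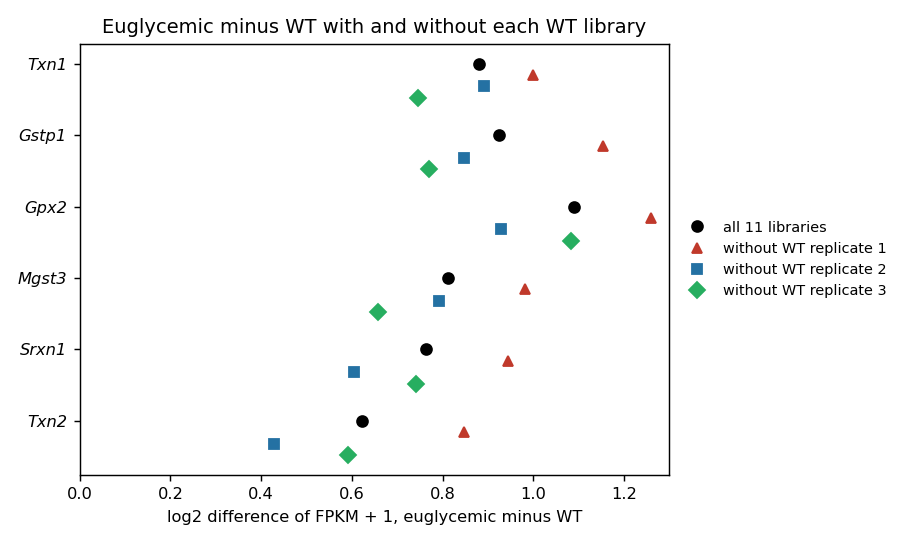
Difference of log2(FPKM + 1), euglycemic minus WT, of 6 members with all 11 libraries (black circles) and without WT replicate 1, 2 or 3 (red triangles, blue squares, green diamonds). For each of the 6 the difference is largest without WT replicate 1, for example 1.15 beside 0.92 for *Gstp1*.

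The wider pathway was described by 86 further genes of redox control, NADPH supply, selenoprotein synthesis and NRF2 regulation, of which 64 were tested. In limma 0 of 64 passed in each of the 4 comparisons. Before adjustment, 9 had a p up to 0.05 in diabetic against WT (4 higher, 5 lower), 7 in euglycemic against WT (2 higher, 5 lower), 19 between the mutant groups (7 higher and 12 lower in diabetic) and 10 in both groups against WT (2 higher, 8 lower). These are 14.1%, 10.9%, 29.7% and 15.6% of the 64, beside 11.9%, 13.9%, 20.6% and 11.3% of all genes. Their median difference was −0.20, −0.067, −0.050 and −0.14 in these comparisons. Catalase (*Cat*), which breaks down hydrogen peroxide, was at 2.07 ± 0.0808 FPKM in WT (SD, n = 3), 2.08 ± 1.23 in diabetic and 2.25 ± 1.14 in euglycemic libraries (SD, n = 4). *Txnip*, the glucose-induced inhibitor of thioredoxin, was at 14.0, 233 and 193 FPKM in WT, at 13.1 to 102 in diabetic and at 5.17 to 151 in euglycemic libraries, so that WT replicate 1 was near the bottom of all 11 libraries. Its difference from WT was −0.97 (SE 1.17, adjusted p = 0.817) and −1.49 (SE 1.17, adjusted p = 0.585).

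The repressor *Bach1* was at 1.24 to 3.29 FPKM in WT and 0.842 to 2.99 in mutant libraries, and the small MAF protein *Mafg* at 5.06 to 11.2 and 3.90 to 7.36. The cystine transporter *Slc7a11*, a target of NRF2, was at 0.0858 to 0.349 FPKM in all libraries and was not tested. *G6pdx*, which makes NADPH, was at 6.46 to 7.5 FPKM in WT, 7.02 to 11.3 in diabetic and 3.22 to 9.55 in euglycemic libraries, and did not pass.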

How the data were processed

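RNA of FACS-sorted GFP+ β-cells was analysed in 11 libraries (3 WT, 4 diabetic and 4 euglycemic βRapKOGFP). The authors deposited 1 FPKM value per gene and library. The study's methods name TopHat 2.1.0 and Cufflinks 2.1.1 on mm10, and the submitters' processing notes name HISAT2 2.0.4 and StringTie 1.3.0, so the tools behind the values are uncertain. Columns named KI were taken as the insulin-treated mutants. No fragment totals come with the values, so depth was inferred from 4497 single-exon genes, where 92.7 to 97.2% of low values were whole multiples of 1 step within 0.02. Of 34745 entries, 478 had no symbol and 17 repeated one, which left 34728 symbols.

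Genes with at least 1 FPKM in at least 3 of 11 libraries (11251) were fitted on log2(FPKM + 1) with limma 3.58.1 in R 4.3.3 (eBayes with trend), all groups in 1 fit, with Benjamini-Hochberg adjustment, and called up to an adjusted p of 0.05 from 1.5-fold. The alignments on which the study's own test was run were not analysed here. On simulated data for diabetic against WT, 95 of 100 genes changed 4-fold and 38 of 100 changed 2-fold were called, with 9 of 11051 unchanged genes. The changed genes were not drawn from the low ones, and noise was independent between genes. These rates therefore do not describe low members such as *Sod3* and *Gpx7*. Lower members were compared with exact permutation tests. Per-library values are given for called members, for the 10 with the smallest p against WT, for *Nfe2l2*, *Keap1*, *Nqo1*, *Hmox1*, *Gclc*, *Gclm*, *Srxn1* and *Txnrd1*, and for the 3 with the highest mean. *Prdx3* and *Sod1* were added after their values were seen. Coordinates and shared 50-base stretches are from GENCODE vM21 (GRCm38), promoters from RefSeq (GRCm38.p6). The members and lists were chosen with earlier results of these data known. Alternatives were the filter, the pseudocount, TPM, median of ratios, a replicate block, no trend, library weights, only the groups compared, no fold criterion and leaving out each library. Tables and figures were made in Python 3.11.15 (pandas 2.3.3, numpy 2.4.6, matplotlib 3.10.9).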

Additional observations from a re-analysis of the deposited data

Results flagged for a closer look

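Of the 84 groups of 4 mutant libraries (42 members in 2 groups), 13 had 1 library whose gap to the nearest other, as a share of the group's range, was over Dixon's 95% limit for 4 values. Independent normal values would give about 1 in 20. The share over all genes was not computed, and several of the 13 came from the same library. The count is therefore no measure of an excess among the members. In euglycemic replicate 4, *Blvrb* (0.456 FPKM), *Fth1* (788.6) and *Gsr* (27.3) were low and *Txn2* (11.1) and *Mgst3* (40.9) high. Euglycemic replicate 2 was low for *Gclm* (5.75) and high for *Gstm1* (25.1), euglycemic replicate 1 was high for *Gpx8* (0.177) and euglycemic replicate 3 for *Mgst2* (0.0127). With the other euglycemic libraries at 0, these last gaps are the whole range: the *Gpx8* value is about 3 fragments, at the floor, and that of *Mgst2* is under 1 fragment and not told from 0. In diabetic libraries, replicate 1 was low for *Txnrd3* (2.36) and high for *Mgst2* (0.318), replicate 3 was high for *Prdx5* (27.4) and replicate 4 low for *Gpx7* (0.199).

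*Prdx3* was below the mean of the WT libraries in every diabetic library and above it in every euglycemic library, with a difference of −0.65 on the log2 scale between the mutant groups (limma adjusted p = 0.126).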

How the results depend on the processing

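Counts of called members were 2 in diabetic against WT, 0 in euglycemic against WT, 0 between the mutant groups and 1 in both mutant groups against WT. The share of all genes called under the same setting is in parentheses. Diabetic against WT gave 1 without a filter (0.0803%) and 1 with a filter of 5 FPKM (1.24%), where *Gstm2* is not tested. It gave 3 when only the groups compared were fitted (1.32%) and 5 with library weights (4.9%). Euglycemic against WT gave 1 with a pseudocount of 0.1 (0.453%) and 18 with library weights (20.3%), where the median became 0.44. Library weights gave 8 between the mutant groups (10.8%) and 11 in both groups against WT (9.92%), and in the last a pseudocount of 0.1 gave 2 (0.8%) and TPM gave 2 (0.862%). Leaving out 1 library gave 1 to 3 (0.231% to 1.87%), 0 to 7 (0.107% to 4.76%), 0 to 4 (0% to 3.36%) and 0 to 3 calls (0.267% to 1.57%) in these 4 comparisons. Of these, 7 and 4 were without WT replicate 1 (4.76% and 3.36%), and 3 in diabetic and 3 in both groups against WT were without euglycemic replicate 4 (1.87% and 1.57%). Both groups against WT gave 0 without WT replicate 2 (0.276%). The cause was not tested.

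Same-numbered libraries did not deviate together (mean correlation over genes −0.132 in 10 pairs, from −0.368 to 0.212, beside 0.0433 in 30 other pairs), and 0 of 11 libraries correlated best with its own number. With the replicate number as a block the counts of called members were 2, 0, 0 and 1, while those of all genes were 45, 20, 0 and 53. Under the block *Mgst3* in diabetic against WT became −0.044, and in euglycemic against WT *Gclc* became 0.0099 and *Hmox1* −0.042.

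Signs also turned for *Keap1* under TPM (−0.018, euglycemic), and under library weights for *Ftl1* (0.34) and *Gpx2* (0.14) in diabetic and *Gclc* (0.17) and *Glrx* (0.093) in euglycemic libraries. Leaving out 1 library gave, for diabetic against WT, −0.70 to 0.29 for *Ftl1*, −0.18 to 0.18 for *Gclm*, −0.30 to 0.037 for *Gpx2*, −0.027 to 0.33 for *Keap1* and −0.10 to 0.23 for *Mgst3*. For euglycemic against WT it gave −0.066 to 0.41 for *Fth1*, −0.32 to 0.18 for *Gclc*, −0.21 to 0.066 for *Glrx*, −0.16 to 0.40 for *Hmox1*, −0.14 to 0.20 for *Keap1* and −0.19 to 0.061 for *Txnrd1*. None of these was called. Of 1409 differences under alternatives, 1320 kept direction and call. They cover the genes given library by library under the rules above and members at an unadjusted p of at most 0.05. Many could not change, so this count does not measure robustness. Only *Nqo1* and *Gstm2* had a call to lose. No trend, no fold criterion and leaving out a library of a group not compared leave a difference as it is.

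TPM moved the split of all calls in diabetic against WT from 53 higher and 56 lower to 62 and 35. At 3 to 4 libraries per group, members at about 2-fold can be missed, and counts below 3 fragments are not told from 0.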

Other observations

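Among the 64 further genes of redox control that were tested, none passed in limma (9, 7, 19 and 10 at an unadjusted p up to 0.05 in the 4 comparisons). The genes named here were chosen after their values were seen. In diabetic libraries, *Idh2*, which makes mitochondrial NADPH, had a mean of 25.9 FPKM beside 56.6 in WT (log2 difference −1.07, SE 0.32, limma adjusted p = 0.175), and *Glrx5*, a mitochondrial glutaredoxin of iron-sulfur cluster assembly, 69.1 beside 125 (−0.85, SE 0.25, adjusted p = 0.168). In euglycemic libraries the means were 48.2 and 99.8 FPKM, and they overlapped WT. *Selenot*, a selenoprotein of the endoplasmic reticulum, was at 10.54 FPKM in diabetic and 16.3 in WT libraries without overlap (−0.58, SE 0.17, adjusted p = 0.164). *Msrb1*, a selenoprotein that repairs oxidised methionine, was higher in diabetic libraries without overlap, at 3.09 FPKM beside 1.68 in WT (0.63, SE 0.20, adjusted p = 0.221) and 1.53 in euglycemic libraries (0.69, SE 0.19, adjusted p = 0.125).

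In euglycemic libraries, *Sepsecs*, an enzyme of selenocysteine synthesis, had a mean of 3.10 FPKM beside 8.51 in WT (−1.13, SE 0.29, adjusted p = 0.131), and *Sesn3*, a sestrin, 2.58 beside 6.24 (−1.02, SE 0.27, adjusted p = 0.143). *Selenop*, the secreted selenium carrier, was lower than WT without overlap in both mutant groups together, with means of 99.1 and 159 FPKM (−0.73, SE 0.27, adjusted p = 0.291). The cytosolic NADPH enzyme *Idh1* had a mean of 11.3 FPKM in euglycemic and 6.49 in WT libraries (0.70, SE 0.21, adjusted p = 0.171), also without overlap.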
